A study of Apostichopus japonicus with 9 samples.

Results

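Pieces of sea cucumber (*Apostichopus japonicus*) body wall (AJBW) that had been held for 1 h at 37 °C (T_1h) were compared with fresh pieces (CON), using 6 of the 9 RNA sequencing libraries of the series. The 3 T_1h libraries and the 3 CON libraries were chosen by their labels, not by any measured value. The other 3 libraries, from pieces kept for 3 h (T_3h), entered the fit to share its estimate of spread and were used where T_3h was compared with T_1h. The animals weighed 150 ± 20 g per the labels, and all pieces came from body walls whose viscera and heads had been removed, so the tissue was excised in every group. CON pieces were frozen fresh and were not held for 1 h at a lower temperature, so that the effect of 37 °C cannot be told apart from that of 1 h after excision. The labels number the libraries 1 to 3 in each group but do not say whether the libraries of a group came from separate animals, and the p-values therefore measure only the spread between these libraries.

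In animal cells, heat activates heat shock factor, which drives transcription of chaperones such as HSP70 and HSP90 that hold and refold damaged proteins. Some transcription factors of the Fos, Ets and Krüppel-like families, called immediate-early, respond to stress within minutes. Sea cucumbers have no adaptive immunity. They rely on complement C3 and factor B, on thioester protease inhibitors of the alpha-2-macroglobulin family, and on lectins and fibrinogen-related proteins, many of them made by coelomocytes, the cells of the body cavity and connective tissue. The dermis of the body wall is built of collagen fibrils and microfibrils, which matrix metalloproteinases can degrade and tissue inhibitors of metalloproteinases protect, and it softens readily once the animal is cut or warmed.

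Expression is given as FPKM, the fragments of a gene relative to its exon length and to all mapped reads of the library, deposited for 53665 genes, and brought here to a common library scale. Of these genes, 21545 had a mean FPKM of at least 1 over the 6 libraries and were tested, and 5671 of them carried an informative description. A gene could pass this minimum through only 1 of the groups. Deposited FPKM summed to between 336123 and 388082 per library, and the scale factors ran from 0.580 in T_3h_2 to 1.46 in CON_3. T_1h_1, which the study left out, stood apart in that 33.7% of its summed FPKM lay in its 10 most abundant genes, against 22.6% and 23.7% in the other T_1h libraries and 13.5% to 18.5% in CON. The number of reads behind each gene is unknown. The tissue carried the marks of body wall, with collagen genes summing to a scaled FPKM of 9203 to 26510 in CON and 14400 to 25080 in T_1h. Gut markers summed to 14.3 to 27.1 in CON and 14.0 to 28.6 in T_1h, gonad markers to 8.89 to 15.9 and 8.57 to 20.9, and nervous tissue markers to 72.1 to 93.8 and 80.2 to 85.9.

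In T_1h vs. CON, 254 genes were upregulated (1.18% of the genes tested) and 151 were downregulated (0.701%) at the thresholds of the study, an unadjusted p of at most 0.05 and a log2 fold change of at least 1 in size, and "called" below means past both. All fold changes are differences of log2(scaled FPKM + 1) between T_1h and CON, given as the estimate ± standard error (SE), with limma's 95% interval in brackets for the main genes, from a fit that paired libraries of the same number. On this scale the change of genes with low FPKM is understated. No gene had a Benjamini-Hochberg adjusted p under 0.05 in limma (the smallest was 0.216), while 1366 genes (6.34%) had an unadjusted p under 0.05, so each call below is one that did not hold after adjustment for the 21545 tests. That count of 0 became 1 without CON_1 and 3 without CON_3. The Ballgown-type test, run without T_1h_1, also gave no gene with an adjusted p under 0.05. It used the CON, T_1h_2 and T_1h_3 libraries with FPKM as deposited, no pairing and a library sum as a further term. Its fold changes are therefore a different measure from those of the paired fit. Among the called genes, 89 of the 254 upregulated and 31 of the 151 downregulated had an informative description. The 3 pairs moved in the same direction for 239 of the upregulated and 129 of the downregulated genes. The T_1h values lay wholly above the CON values for 128 of the upregulated genes and wholly below for 65 of the downregulated genes, and over all tested genes this separation was seen for 465 (2.16%) and 594 (2.76%).

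The balance between upregulated and downregulated genes depended on how libraries were scaled. With FPKM as deposited, 178 genes were upregulated and 357 downregulated, so 66.7% of the called genes were lower against 37.3% after scaling, and the median log2 fold change of all genes moved from −0.04 to −0.17. Changes below are therefore read against a median of −0.04, and counts of called genes in a class against 1.18% upregulated and 0.701% downregulated. Without pairing the libraries by number, 137 genes were upregulated and 83 downregulated. Leaving out T_1h_1 gave 322 upregulated genes (1.48% of 21776) and 226 downregulated genes (1.04%), of which 201 and 97 were also called with all libraries. CON_3 and T_1h_3 weighed on the downregulated genes, which numbered 568 without CON_3 and 246 without T_1h_3. In 145 of the 254 upregulated genes the smallest of the 3 pair differences was that of T_1h_1 with CON_1, as it was in 34 of the 151 downregulated genes.

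**Figure D1:**
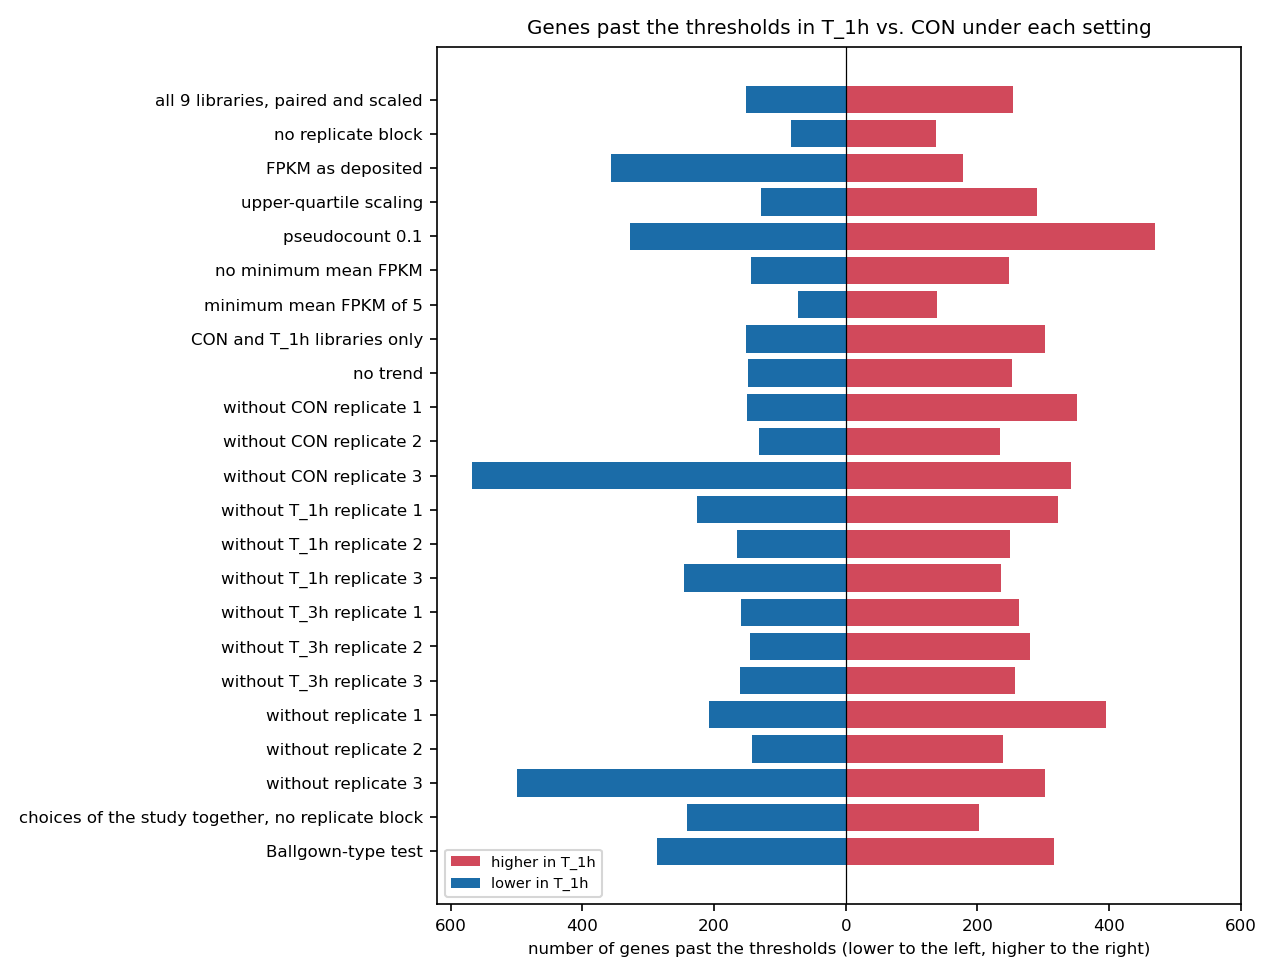
Number of genes upregulated and downregulated in T_1h vs. CON (x axis, bars from 0) for each way of processing (rows), with all 9 libraries scaled and paired in the first row. Upregulated genes numbered between 137 without pairing and 470 with a pseudocount of 0.1, and downregulated genes between 72 with a minimum mean FPKM of 5 and 568 without CON_3.

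Heat shock proteins did not pass the thresholds after 1 h. None of the 10 tested members of the HSP70 family, the 1 HSP90 gene, the 1 small heat shock protein, the 25 DnaJ and other co-chaperones or the 17 chaperonins and mitochondrial chaperones was called by limma, and 1 of them, a co-chaperone, had an unadjusted p under 0.05. By contrast, 1 HSP70 gene was called by the Ballgown-type test, and without CON_3 limma called 1 co-chaperone and 1 chaperonin as lower. Over all tested genes limma called 1.88% with all libraries, and 6.34% had an unadjusted p under 0.05. Lists this short would hold few calls at those shares. The most abundant HSP70 gene, heat shock cognate 70 (MSTRG.20083), which encodes the constitutive cytosolic chaperone of the family, had scaled FPKM values of 37.3, 93.5 and 172 in CON and 60.7, 117 and 254 in T_1h. Each T_1h value was above the CON value of the same number, but the values of the groups overlapped widely because libraries numbered 3 were highest and those numbered 1 lowest. Its log2 fold change was 0.52 ± 0.42 (−0.45 to 1.5), and moved between 0.18 without CON_1 and 0.86 without CON_2 (0.73 without T_1h_1), with 1.56 in the Ballgown-type test. A change of the size of the threshold lay within that interval.

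HSP90 (MSTRG.12166, described as heat shock protein 90-alpha 3), which matures kinases and steroid receptors, had scaled FPKM values of 115, 108 and 155 in CON and 126, 107 and 355 in T_1h. Only T_1h_3 stood out, and the groups overlapped. The log2 fold change was 0.44 ± 0.33 (−0.34 to 1.21). Alpha-crystallin B chain-like (MSTRG.30013), a small heat shock protein that keeps unfolded proteins from aggregating, had values of 21.8, 20.4 and 11 in CON and 6.05, 22.1 and 23.6 in T_1h. T_1h_1 was the lowest of the 6 libraries, and the pairs went in different directions, with log2 differences of −1.69, 0.12 and 1.04. Its log2 fold change of −0.18 ± 0.46 changed sign without T_1h_1 (0.38). The gene described as heat shock protein 70 (MSTRG.35371) was chosen after its values were seen. It showed 84.8, 3.85 and 0.933 in CON and 82.6, 0.911 and 9.72 in T_1h. Library 1 was by far the highest in both groups, while T_1h was below CON in pair 2 and above it in pair 3.

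Mitochondrial chaperonin Hsp56 (MSTRG.24179), the most abundant chaperonin, which folds proteins imported into mitochondria, had values of 49, 47.7 and 112 in CON and 65.8, 59.5 and 124 in T_1h, again overlapping. The most abundant co-chaperone gene (MSTRG.18308), described as the Tpr2a domain of Hop, the adaptor that links HSP70 with HSP90, had 26.4, 18.1 and 27.6 in CON and 29.5, 18.2 and 31.6 in T_1h. Both genes were highest in libraries numbered 3. The median log2 fold change of the HSP70 family was 0.32, against −0.04 over all genes, with medians of 0.30, −0.06 and 0.36 in the 3 pairs. For the DnaJ and other co-chaperones the median was −0.04, and for the chaperonins 0.04, which turned negative (−0.13) with FPKM as deposited.

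**Figure D2:**
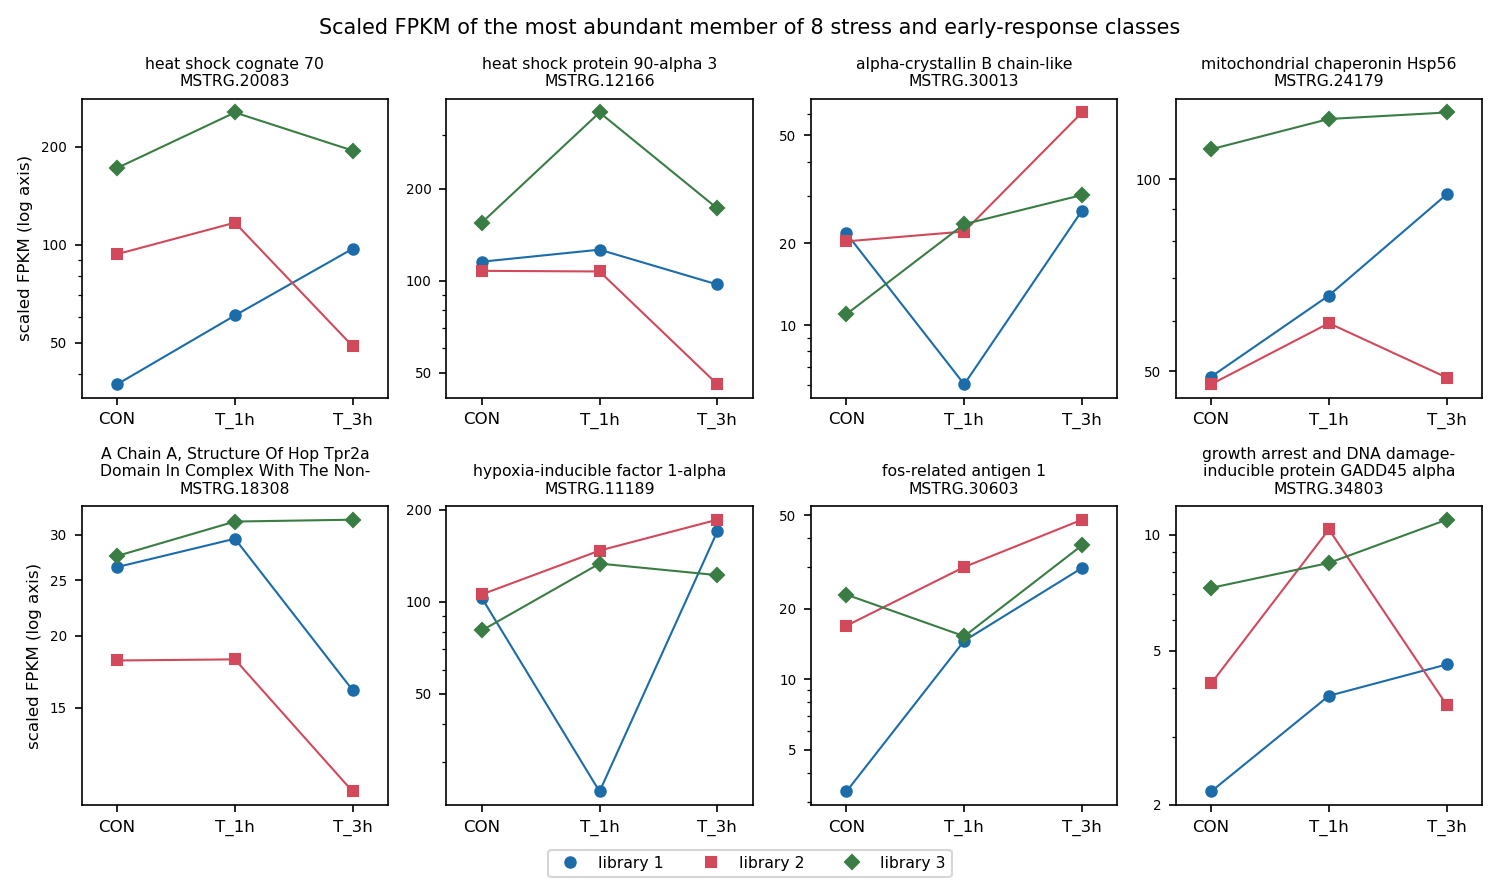
Scaled FPKM (log axis) of the most abundant member of 8 stress and early-response classes in CON, T_1h and T_3h, with lines joining libraries of the same number. None of the 8 genes was called in T_1h vs. CON, and lines of the same gene often ran in different directions.

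Of the transcription factors of the stress and immediate-early classes 1 was called. None of the 6 tested heat shock and stress transcription factors was called by limma or the Ballgown-type test, none had an unadjusted p under 0.05, and 1 was called as higher with the choices of the study together. Heat shock factor protein 1 (MSTRG.35927), the regulator that drives the heat shock genes, was near the minimum FPKM of 1, with scaled FPKM values of 0.702, 0.674 and 2.32 in CON and 0.928, 1.22 and 0.61 in T_1h. Hypoxia-inducible factor 1-alpha (MSTRG.11189), the oxygen-sensitive regulator of glycolytic genes, had values of 103, 106 and 80.7 in CON and 24, 147 and 133 in T_1h. T_1h_1 was far below the other 5 libraries, while T_1h_2 and T_1h_3 were above all CON values. The log2 fold change was −0.29 ± 0.57 with all libraries and 0.60 without T_1h_1, a change of sign.

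Among 8 tested genes of the list of immediate-early transcription factors, 1 was downregulated (12.5%, against 0.701% over all genes) and none upregulated. An unadjusted p under 0.05 in limma was seen for 2. Without T_1h_1 2 were downregulated, without CON_1 none, and without CON_3 1 was also upregulated. The one that fell was hairy and enhancer of split transcription factor C (MSTRG.47052), a repressor of the family that responds to Notch signalling. Its scaled FPKM was 7.71, 3.1 and 1.26 in CON and 0.834, 0.818 and 0.744 in T_1h. All T_1h values were below all CON values, and the largest difference was in pair 1. The log2 fold change was −1.26 ± 0.35 (−2.09 to −0.44), and it became −0.79 without CON_1, where the call was lost. Fos-related antigen 1 (MSTRG.30603), a subunit of the AP-1 transcription factor, had 3.33, 16.9 and 23 in CON and 14.6, 30.1 and 15.3 in T_1h, with pair 1 and pair 2 higher in T_1h and pair 3 lower. Its log2 fold change was 0.70 ± 0.44 (−0.33 to 1.72). The class, matched on family names in the descriptions, had a median of −0.45. Whether each member is an immediate-early gene was not tested, so the count and median describe the list only. In 3 of its 8 members all T_1h values were below all CON values, as in 2.76% of all tested genes. Its members differed in direction. Fos-related antigen 1 and nuclear receptor subfamily 4 group A member 2 (0.39) had positive log2 fold changes, and Krüppel-like factor 5 was near 0 (−0.05). The Ets, C/EBP gamma-like and hairy and enhancer of split members were negative, from −0.45 to −1.26.

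Of 10 tested kinase feedback and stress-inducible regulators and 16 members of NF-kappa-B, TNF and Toll signalling, none was called by limma, 1 of each class had an unadjusted p under 0.05, and the Ballgown-type test called 2 of the first class as higher and 1 of the second as lower. In limma 1 of the first was higher without T_1h_1 and 1 of the second lower without CON_3. GADD45 alpha (MSTRG.34803), a regulator induced by DNA damage, had values of 2.17, 4.12 and 7.28 in CON and 3.83, 10.3 and 8.45 in T_1h, with T_1h above CON in each pair and overlapping groups. The log2 fold change was 0.65 ± 0.33 (−0.11 to 1.41). The tumor necrosis factor receptor EDAR-like gene (MSTRG.34323) had 11.8, 25 and 13.4 in CON and 3.91, 10.8 and 11.8 in T_1h, and no T_1h value exceeded the CON value of its number.

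Complement genes rose in T_1h. Of 13 tested genes described as complement C3 or factor B, 8 were upregulated (61.5%, against 1.18% over all genes) and none downregulated. All 13 had a positive log2 fold change, and the median was 1.10 (0.92 with FPKM as deposited). This list was separated from other immune genes after values of these data had been seen, so its count is a description. In 3 of the 13 genes all T_1h values were above all CON values, as in 2.16% of all tested genes. C3 (MSTRG.13902), the central protein of complement that attaches to foreign surfaces, had scaled FPKM values of 7.11, 10.1 and 16.3 in CON and 16.5, 64.9 and 134 in T_1h. T_1h_1 was only just above CON_3, whereas T_1h_2 and T_1h_3 were clearly higher than every CON library. It rose by 2.22 ± 0.35 (1.40 to 3.04) on the log2 scale, and by 2.65 without T_1h_1. The most abundant C3 gene (MSTRG.13921) had 77, 109.7 and 167 in CON and 179.8, 319 and 337 in T_1h. Its groups did not overlap, and its log2 fold change was 1.25 ± 0.34 (0.47 to 2.03). Both C3 genes were called in each fit that left out 1 CON or T_1h library.

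Factor B is the serine protease that joins C3 in the convertase of the alternative pathway. 4 of its genes were upregulated, and they are named here after their values were seen. MSTRG.19417 had scaled FPKM of 3.82, 2.66 and 5.55 in CON and 7.06, 9.49 and 16.7 in T_1h, with groups that did not overlap, and a log2 fold change of 1.23 ± 0.38 (0.36 to 2.11), and its call was lost at 1.03 without T_1h_2 and 0.99 without T_1h_3. MSTRG.27176 had 4.86, 4.54 and 13.5 in CON and 6.8, 13.8 and 50.7 in T_1h, and here CON_3 was above T_1h_1, so the groups overlapped although each pair rose. In log2 terms the rise was 1.22 ± 0.34 (0.44 to 2.0), and it lost its call at 0.95 without T_1h_3. The genes MSTRG.2823 and MSTRG.3521 had log2 fold changes of 1.22 ± 0.46 and 1.08 ± 0.35. Their calls rested on several libraries, at 0.66 without CON_1, 1.36 without CON_2, 1.31 without T_1h_1, 1.13 without T_1h_2 and 1.20 without T_1h_3 for the first and 0.93 without CON_2, 0.83 without T_1h_2 and 0.84 without T_1h_3 for the second. A further C3 gene, complement component 3-2 (MSTRG.42747), had 17, 14.5 and 68.4 in CON and 26.5, 44.7 and 150.1 in T_1h, rose in each pair with a log2 fold change of 1.10 ± 0.26 (0.49 to 1.71), and lost its call at 0.96 without CON_2 and 0.89 without T_1h_2. The number of complement genes called was 10 without T_1h_1, 5 each without CON_2 or T_1h_3, 3 without T_1h_2 and 3 without pairing, and it was 2 both in the Ballgown-type test and with the choices of the study together. It was lowest, at 1, when all libraries numbered 2 were left out. Several of these genes share a description and may be copies or pieces of 1 gene among which reads were divided.

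All 4 tested genes of the alpha-2-macroglobulin family, relatives of C3 that trap proteases of many classes, were upregulated, against 1.18% over all genes. The 4 tested genes, grouped after their values were seen, had a median log2 fold change of 1.56, and 3 or 4 of them were called in every fit without 1 library. MSTRG.552 had the largest change of these, with scaled FPKM of 0.926, 3.98 and 3.93 in CON and 5.94, 22 and 39.9 in T_1h. Each T_1h library was above all CON libraries. The rise on the log2 scale was 2.37 ± 0.34 (1.58 to 3.16), or 2.71 ± 0.35 without T_1h_1. MSTRG.45318 had 1.36, 6.24 and 4.5 in CON and 4.91, 24.6 and 29.9 in T_1h, in which T_1h_1 lay below CON_2, and its log2 fold change was 1.88 ± 0.32 (1.13 to 2.63). The most abundant gene of the family (MSTRG.23773, described as pregnancy zone protein) had 47.9, 89.1 and 112 in CON and 96.7, 232 and 286 in T_1h, so that T_1h_2 and T_1h_3 were well above CON and T_1h_1 was between the CON values. On the log2 scale it rose by 1.24 ± 0.31 (0.52 to 1.96). The last gene (MSTRG.40214) had a log2 fold change of 1.02 ± 0.34, and its call was lost at 0.89 without CON_1, 1.0 without CON_3 and 0.62 without T_1h_3.

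**Figure D3:**
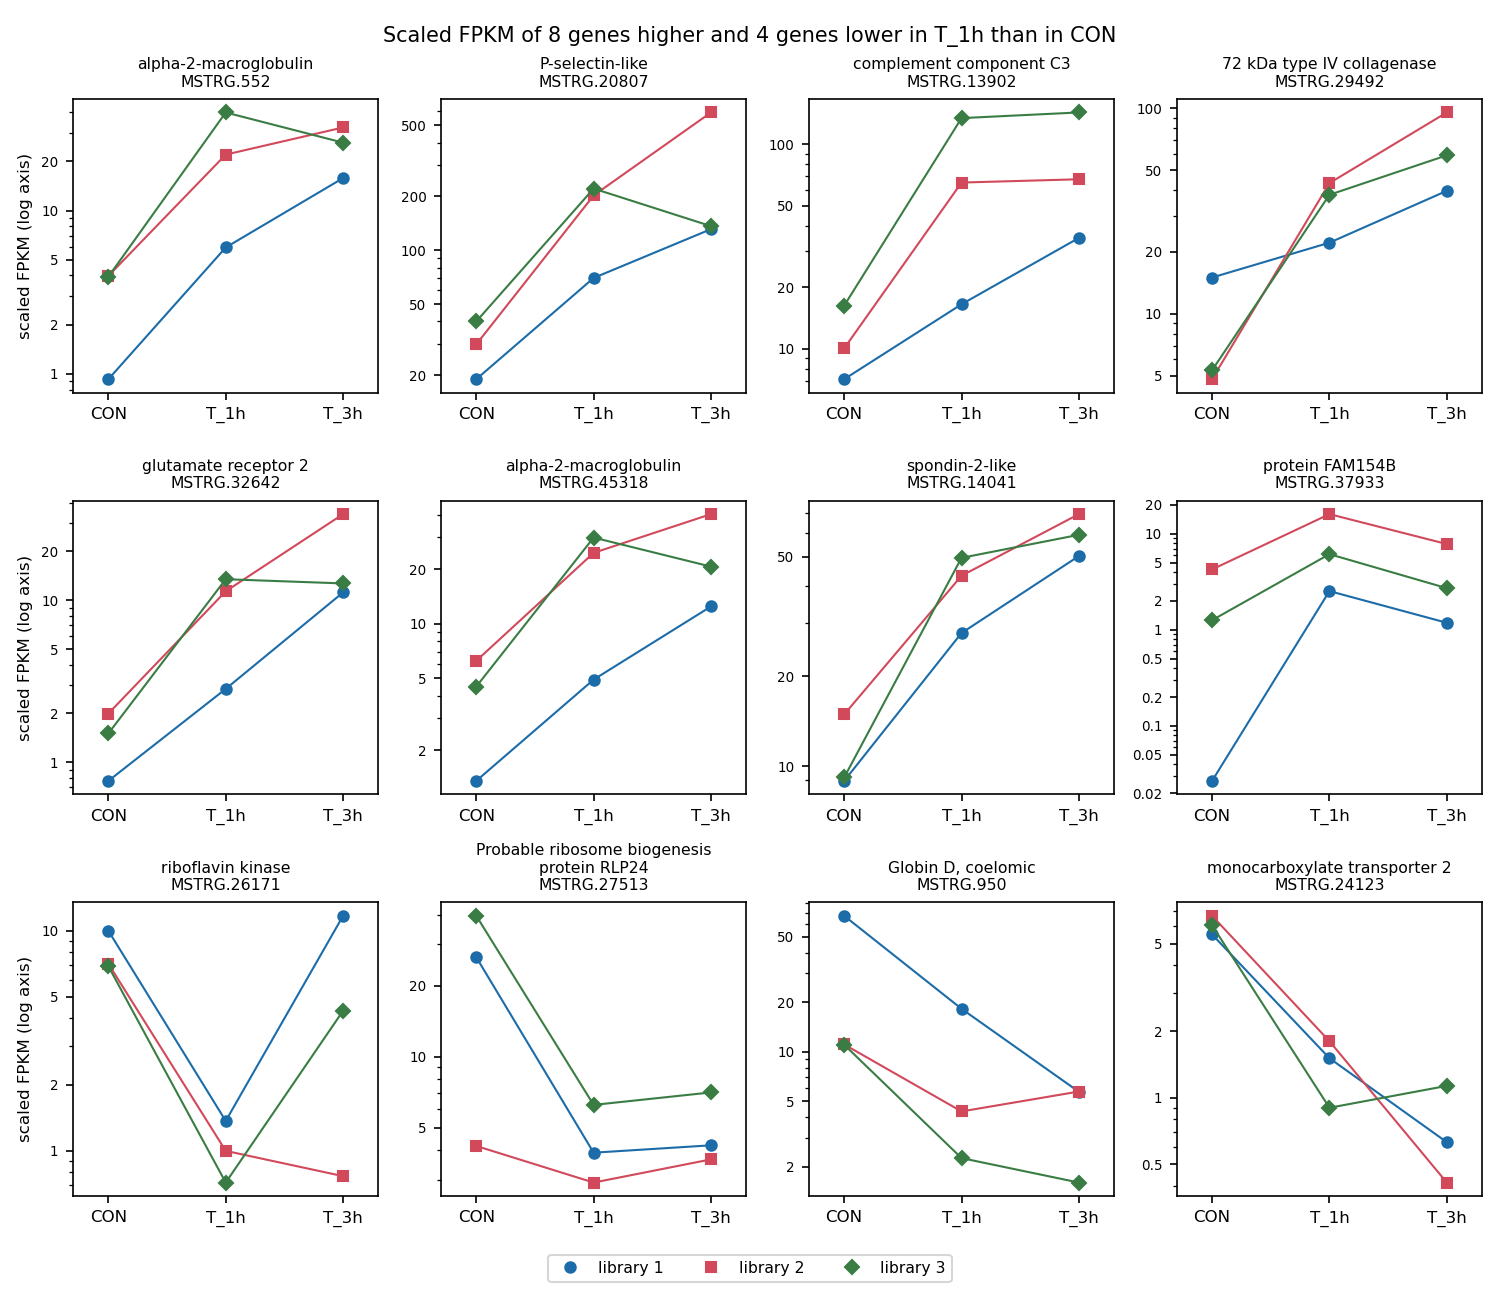
Scaled FPKM (log axis) of 8 upregulated and 4 downregulated described genes in CON, T_1h and T_3h, with lines joining libraries of the same number. Genes were taken from the largest rises and falls if they were called in each fit without 1 CON or T_1h library. Those lists required 1 direction in all 3 pairs, so the lines from CON to T_1h rise in the upper panels and fall in the lowest row by choice. The line of library 1 is the flattest in several of the upper panels.

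Coelomocytes, which make complement proteins in echinoderms, were not measured apart from the body wall, and in bulk tissue more cells of a type and more RNA per cell cannot be told apart. Other genes of recognition rose less uniformly. Among 74 tested fibrinogen-related proteins, secreted pattern-binding proteins, 7 were upregulated (9.46%, against 1.18% over all genes) and none downregulated, with a median of 0.31. The count was 4 without CON_1, 3 without CON_3, 1 without pairing and 2 in the Ballgown-type test. Fibrinogen-like protein A (MSTRG.9464) had scaled FPKM of 5.14, 6.51 and 5.72 in CON and 10.1, 24.7 and 26.7 in T_1h, with all T_1h values above all CON values. It rose by 1.56 ± 0.33 (0.79 to 2.32) on the log2 scale, and it was called whichever library was left out. A second gene of that description (MSTRG.2214) had 26.1, 4.29 and 8.31 in CON and 69.7, 5.61 and 26.7 in T_1h and rose in each pair, while its level followed the library number. In log2 terms the rise was 1.09 ± 0.32 (0.35 to 1.84), with calls lost at 0.84 without CON_1, 0.97 without CON_3 and 0.85 without T_1h_3, and the value was 0.13 with the choices of the study together and −0.093, a change of sign, in the Ballgown-type test. Another (MSTRG.27182) had 1.76, 0.574 and 5.41 in CON and 9.76, 1.18 and 8.88 in T_1h, a log2 fold change of 1.02 ± 0.37, and lost its call at 0.49 without CON_1, 0.84 without T_1h_1 and 1.09 without T_1h_2.

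The most abundant member of that class was a tenascin-like gene (MSTRG.39446), described as partial. Tenascins are matrix glycoproteins that end in a fibrinogen-like domain. It had 397, 279.8 and 167 in CON and 524, 690.4 and 543 in T_1h, so T_1h was above CON throughout, and its log2 fold change was 1.13 ± 0.44 (0.11 to 2.16). The call was lost at 0.81 without CON_2, 1.13 without CON_3 and 0.71 without T_1h_3. Among 43 tested lectins and scavenger receptors 1 was upregulated (2.33%, near the 1.18% of all genes), deleted in malignant brain tumors 1 (MSTRG.35239), a scavenger receptor cysteine-rich protein that binds microbes. The number upregulated was 6 without CON_1, 4 without T_1h_1, 2 without CON_3 and 0 without CON_2 or T_1h_3. It had 9.91, 6.8 and 4.82 in CON and 21.5, 15.5 and 10.04 in T_1h with no overlap, a log2 fold change of 1.02 ± 0.30 (0.32 to 1.71), and lost its call at 0.93 without CON_1, 0.87 without CON_2 and 0.86 without T_1h_3. The most abundant lectin (MSTRG.11406) had 382, 491 and 484 in CON and 168, 414 and 416 in T_1h, where only T_1h_1 stood apart, and was not called.

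Several secreted or surface proteins outside these classes were among the largest rises. P-selectin-like (MSTRG.20807), whose vertebrate counterpart tethers blood cells to vessel walls, had 19, 29.7 and 39.9 in CON and 69.9, 202 and 221 in T_1h. The lowest T_1h value was above the highest CON value, and the log2 fold change was 2.33 ± 0.48 (1.23 to 3.44). Spondin-2-like (MSTRG.14041), a secreted matrix protein that binds microbes in mammals, had 8.95, 14.9 and 9.19 in CON and 27.8, 43.2 and 49.5 in T_1h. It showed the clearest separation of the group, with a log2 fold change of 1.77 ± 0.25 (1.20 to 2.34), and 1.89 without T_1h_1. An ependymin-related protein (MSTRG.42653), a secreted glycoprotein named after a protein of fish brain fluid, had 15.2, 34.8 and 19.9 in CON and 30.7, 101 and 108 in T_1h. T_1h_1 fell between the CON values here, and T_1h_2 and T_1h_3 were about equal, with a log2 fold change of 1.62 ± 0.33 (0.84 to 2.39). The 3 genes were called in each fit without 1 library.

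Among proteases and their inhibitors, 4 of 18 matrix metalloproteinase and inhibitor genes were upregulated (22.2%, against 1.18% over all genes) and none downregulated. In each of these 4 genes but 1 all T_1h values were above all CON values. The gene described as 72 kDa type IV collagenase (MSTRG.29492), the gelatinase that cleaves denatured and basement membrane collagen, had scaled FPKM of 15, 4.81 and 5.32 in CON and 22.2, 43.2 and 37.9 in T_1h. CON_1 was the highest CON library by far, so pair 1 rose by 0.53 in log2 terms and pairs 2 and 3 by 2.93 and 2.62. The rise on the log2 scale was 2.03 ± 0.50 (0.86 to 3.19), and 2.39 ± 0.57 without T_1h_1. It was called in each fit without 1 library. Matrix metalloproteinase 16 precursor (MSTRG.5484), a membrane-anchored relative, had 45.5, 31.1 and 41.4 in CON and 46.9, 108 and 142 in T_1h. T_1h_1 was hardly above CON_1, and the log2 fold change of 1.19 ± 0.36 lost its call at 0.92 without CON_2, 1.0 without CON_3, 1.03 without T_1h_2 and 0.94 without T_1h_3. It was 1.59 without T_1h_1.

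The other 2 called genes of this class were inhibitors. Metalloproteinase inhibitor 1-like (MSTRG.23068), which blocks the active site of matrix metalloproteinases, had 10.8, 16 and 6.62 in CON and 20.2, 47 and 19.2 in T_1h, and all 3 pairs rose by similar amounts, 0.84, 1.5 and 1.41. On the log2 scale it rose by 1.25 ± 0.24 (0.69 to 1.8). A second inhibitor gene (MSTRG.23074), named after its values were seen, had 9.52, 16.3 and 37.9 in CON and 23.2, 48.6 and 53.9 in T_1h, a log2 fold change of 1.07 ± 0.41, and lost its call at 0.74 without CON_1, 1.05 without CON_2, 0.76 without T_1h_2 and 1.16 without T_1h_3. The most abundant inhibitor of the description (MSTRG.23063) had 24, 79.9 and 65.5 in CON and 28, 169 and 55.3 in T_1h and was not called. The number called in this class was 2 without CON_2, without T_1h_2 or without T_1h_3.

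Plasminogen-like (MSTRG.3154), whose vertebrate counterpart is the zymogen of the fibrin-cleaving protease plasmin, had 0.727, 1.68 and 1.11 in CON and 2.23, 6.81 and 8.88 in T_1h. The groups did not overlap, and the log2 fold change was 1.56 ± 0.30 (0.86 to 2.25), called in each fit without 1 library. Kazal-type inhibitors of serine proteases went the other way. MSTRG.20916 had 18.5, 16.7 and 3.44 in CON and 3.77, 9.16 and 1.33 in T_1h and MSTRG.18044 had 54.8, 28.8 and 13.9 in CON and 12.1, 21.6 and 6.27 in T_1h, both lower in T_1h in each pair, with log2 fold changes of −1.25 ± 0.32 and −1.18 ± 0.35. Both levels followed library number, with libraries numbered 3 lowest, so the groups overlapped. Their calls were lost at −0.90 without CON_1 for the first and −0.71 without CON_1 and −0.97 without T_1h_1 for the second. ADAMTS9 (MSTRG.42643), a secreted protease that cleaves proteoglycans, had 3.89, 6.43 and 7.06 in CON and 7.14, 25.6 and 12.7 in T_1h, and its log2 fold change of 1.11 ± 0.38 lost its call at 0.77 without CON_2, 1.08 without CON_3, 1.03 without T_1h_1 and 0.91 without T_1h_2. None of 12 tested cathepsins and calpains was called by limma or the Ballgown-type test, with 2 at an unadjusted p under 0.05, although 2 were lower without CON_3 and 1 each without T_1h_2 or T_1h_3, and cathepsin L (MSTRG.29892), the lysosomal cysteine protease, had 648, 321 and 303 in CON and 326, 472 and 349 in T_1h.

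Structural matrix genes held a larger share of rises than all genes, in counts that moved with single libraries. Of 23 tested collagens 3 were upregulated (13%) and 1 downregulated, and of 41 other matrix proteins 3 were upregulated (7.32%) and none downregulated, against 1.18% upregulated over all genes. Members high only in T_1h could pass the minimum FPKM through T_1h, so that these counts are a description. With no minimum mean FPKM, 3 of 35 collagens and 2 of 94 other matrix genes were upregulated, against 0.482% over all genes. The most abundant collagen gene (MSTRG.32978, alpha-2 collagen), a chain of the fibrils of the dermis, had 14711, 6221 and 4169.6 in CON and 6295, 9096 and 9459 in T_1h, and the spread within CON was larger than any difference between groups. A low-expressed gene of the same description (MSTRG.46350) had 6.37, 2.31 and 2.75 in CON and 0.394, 1.25 and 1.53 in T_1h, with T_1h below CON in every library, and a log2 fold change of −1.18 ± 0.36 (−2.02 to −0.33). It lost its call at −0.67 without CON_1 and −0.77 without T_1h_1. Alpha-1 collagen (MSTRG.38727), named after its values were seen, had 194, 125 and 123 in CON and 222, 345 and 456 in T_1h with no overlap, and its log2 fold change of 1.18 ± 0.45 lost its call at 0.83 without CON_2, 0.99 without CON_3, 1.31 without T_1h_2 and 0.83 without T_1h_3. The alpha-1 and alpha-2 chains of type IX collagen, which decorates collagen fibrils in vertebrate cartilage, were higher at low levels. Collagen alpha-1(IX) (MSTRG.17333) had 0.0618, 0.236 and 0.265 in CON and 0.606, 1.36 and 3.27 in T_1h, and passed the minimum FPKM through T_1h. Collagen alpha-2(IX) (MSTRG.17336) had 1.94, 1.86 and 0.48 in CON and 2.49, 4.31 and 8.97 in T_1h. Their log2 fold changes were 1.09 ± 0.31 and 1.3 ± 0.48, with calls lost at 0.99 without CON_2 and 0.88 without CON_3 for alpha-1 and 1.29 without CON_2, 0.71 without CON_3 and 0.78 without T_1h_3 for alpha-2. Without T_1h_2 or without T_1h_3, alpha-1 was under the minimum FPKM. No collagen gene was higher past the thresholds without CON_2, without CON_3 or without T_1h_3, 1 was without T_1h_2, and 7 were without CON_1. The 3 upregulated genes of the other matrix class became 7 without CON_1, 2 without T_1h_1 or T_1h_2, and 1 without CON_2, CON_3 or T_1h_3, while 4 were downregulated without CON_3.

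Thrombospondin-1 (MSTRG.14033), a matrix glycoprotein that binds cells and growth factors, had 14.2, 18.3 and 76.8 in CON and 29.4, 53.5 and 215 in T_1h. Its level rose in each pair but differed more between library numbers than between groups. It rose by 1.32 ± 0.28 (0.68 to 1.96) on the log2 scale, called in each fit without 1 library. Laminin-like protein epi-1 (MSTRG.1794), a basement membrane chain, had 0.229, 0.928 and 0.131 in CON and 0.795, 2.71 and 4.36 in T_1h, and a log2 fold change of 1.24 ± 0.40 that lost its call at 1.18 without CON_2, 0.82 without CON_3 and 0.90 without T_1h_3. Fibropellin Ia-like protein (MSTRG.19784), the most abundant gene of the class, had 240.4, 167 and 119.8 in CON and 172, 226 and 106 in T_1h and was not called. None of 24 integrin and focal adhesion genes was called by limma or the Ballgown-type test, and 3 had an unadjusted p under 0.05. Their median was −0.27, and 4 were downregulated without CON_3 and 1 without T_1h_3 or with FPKM as deposited.

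Contractile genes of muscle were split. Of 16 tested genes 5 were upregulated (31.2%, against 1.18% over all genes) and none downregulated. The median was 0.24, and the scaled FPKM of all 47 genes of this class summed to 396 to 439 in CON and 358 to 564 in T_1h. This sum is of the class itself and is no separate measure of muscle. Whether the share of muscle in the pieces took part was not tested. Striated muscle myosin heavy chain (MSTRG.24083), the motor of the thick filament, had 1.64, 3.73 and 3.11 in CON and 2.62, 13.8 and 15.9 in T_1h. T_1h_1 was between the CON values, and T_1h_2 and T_1h_3 were far above them. In log2 terms the rise was 1.38 ± 0.32 (0.64 to 2.12), and 1.8 ± 0.27 without T_1h_1. The number of contractile genes called was 3 without CON_2 and 2 without T_1h_3. Troponin I (MSTRG.18626), the inhibitory subunit of the thin filament switch, had 2.64, 3.2 and 3.75 in CON and 3.77, 8.55 and 14.7 in T_1h, where T_1h_1 was level with CON_3, and its log2 fold change of 1.10 ± 0.34 lost its call at 0.93 without CON_2 and 0.71 without T_1h_3. Titin (MSTRG.30676), the elastic spring of the sarcomere, had 0.111, 1.43 and 2.23 in CON and 0.773, 4.21 and 8.04 in T_1h, and its log2 fold change of 1.09 ± 0.33 lost its call at 0.79 without CON_3 and 0.86 without T_1h_2.

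The remaining contractile genes that rose were myosin light chains, named after their values were seen. Myosin regulatory light chain 12A (MSTRG.17224) had 31.1, 24.3 and 32.3 in CON and 44.5, 64.4 and 132 in T_1h and myosin-2 essential light chain-like (MSTRG.37164) had 15.5, 8.0 and 12.2 in CON and 22.2, 24.1 and 45.4 in T_1h, both without overlap. The log2 fold changes were 1.29 ± 0.40 and 1.26 ± 0.41, and both calls were lost without CON_2 or without T_1h_3 (1.07 without CON_2 and 0.83 without T_1h_3, and 0.94 without CON_2 and 0.87 without T_1h_3, in that order of genes). The most abundant contractile gene, calponin-3-like (MSTRG.40603), an actin-binding regulator of smooth muscle, had 144, 149 and 119 in CON and 103, 141 and 78.9 in T_1h, with no rise. Among 40 tested actin and actin regulator genes none was called by limma with all libraries, 1 had an unadjusted p under 0.05, and the Ballgown-type test called 1 as higher. Without T_1h_1 limma called 2 as higher and 2 as lower, without CON_1 2 as higher, without T_1h_2 1 as higher and without CON_2 1 as lower, and 2 were higher with upper-quartile scaling or with the CON and T_1h libraries alone. Actin (MSTRG.7223) had 874, 612 and 549 in CON and 344, 633 and 836 in T_1h.

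Genes of the ciliary axoneme, the microtubule core of cilia and sperm tails, rose together at low levels. Of 140 genes with such descriptions 16 passed the minimum FPKM, of which 9 were upregulated (56.2%, against 1.18% over all genes) and none downregulated. With no minimum mean FPKM, 9 of 134 were upregulated, against 0.482% over all genes. This list was made after values of these data had been seen, so that these counts are a description. Members that are high only in T_1h could also pass the minimum through T_1h, as did tektin-B1 and the dynein light chain below. Tektin-B1 (MSTRG.46672), a filament of the doublet microtubules, had scaled FPKM of 0.0923, 0.92 and 0.924 in CON and 0.824, 11.9 and 4.8 in T_1h. T_1h_1 was below CON_2 and CON_3, yet each pair rose, and the log2 fold change was 1.69 ± 0.41 (0.74 to 2.64). FAM154B (MSTRG.37933), a microtubule-associated protein of axonemes in mammals, had 0.0268, 4.24 and 1.26 in CON and 2.53, 15.9 and 6.12 in T_1h. It had the smallest p of the described genes, with a log2 fold change of 1.71 ± 0.19 (1.27 to 2.14), an adjusted p of 0.216 in limma, above the 0.05 limit, and a rise in 3 of 3 pairs. The axonemal 33 kDa inner dynein arm light chain (MSTRG.5215), part of the motor that bends cilia, had 0.154, 0.452 and 0.72 in CON and 0.754, 2.44 and 5.25 in T_1h with no overlap and a log2 fold change of 1.24 ± 0.29. Tektin-B1 and FAM154B were called in each fit without 1 library, and the dynein light chain in each but that without T_1h_3, where it was under the minimum FPKM.

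Radial spoke head protein 4 homolog A-like (MSTRG.25149), of the spoke that regulates the dynein motors, had 0.939, 0.65 and 0.375 in CON and 1.93, 3.09 and 2.68 in T_1h, a log2 fold change of 1.11 ± 0.24 and no overlap, and lost its call at 0.95 without CON_2 and 0.91 without T_1h_3. Sperm-associated antigen 6 (MSTRG.40795), a protein of the central pair of axonemal microtubules, had 1.12, 4.91 and 4.04 in CON and 4.24, 16.9 and 6.25 in T_1h, and its log2 fold change of 1.14 ± 0.26 lost its call at 0.95 without CON_2 and 0.99 without T_1h_2. The class count was 2 without CON_2, 3 without T_1h_2 and 9 without T_1h_1. Without pairing it was 3, and 4 were called by the Ballgown-type test. The summed level of the class was 25.8 to 52.4 in CON and 54.8 to 143 in T_1h. Only 4 gonad markers were tested. The most abundant, vasa-like protein (MSTRG.15860), had 10.8, 10.6 and 4.58 in CON and 4.7, 6.15 and 11.8 in T_1h, with overlapping groups. Whether cells with cilia or sperm differed in number between the pieces was not tested. TALPID3-like (MSTRG.39303), a centriolar protein needed to form cilia in vertebrates, had the largest rise of any described gene at 2.73 ± 0.79 (0.89 to 4.56), with 0.388, 0.298 and 0.141 in CON and 19.7, 23.5 and 0.171 in T_1h. The rise was that of pairs 1 and 2 alone, since both libraries numbered 3 were near 0, and the call was lost at 2.24 without CON_1 and 1.91 without CON_2.

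Iron-binding and storage genes gave 2 upregulated members of 5 (40%, against 1.18% over all genes) and none downregulated, and 1 upregulated without CON_1, CON_2 or T_1h_3. When all libraries numbered 2 were left out, none was upregulated, so both melanotransferrin genes below lost their calls. Melanotransferrin (MSTRG.32738), an iron-binding protein of the transferrin family, had 296, 244 and 274 in CON and 456, 1142 and 1054 in T_1h. All T_1h values were above all CON values, with T_1h_1 the lowest of them. The rise on the log2 scale was 1.59 ± 0.40 (0.67 to 2.52), called in each fit without 1 library, and 1.99 without T_1h_1. A second melanotransferrin gene (MSTRG.32733) had 2.25, 12.5 and 19.3 in CON and 6.13, 49.3 and 51.7 in T_1h, a log2 fold change of 1.47 ± 0.59, and lost its call at 1.25 without CON_1, 1.21 without CON_2, 1.41 without T_1h_2 and 1.06 without T_1h_3. Ferritin (MSTRG.43507), the iron storage protein and 1 of the most abundant transcripts, had 5940.4, 2919.7 and 2765 in CON and 4336, 3117 and 3469.9 in T_1h, with overlapping groups. Major yolk proteins are transferrin-like iron and zinc carriers of echinoderms that are made outside the egg in both sexes. Of 3 genes, grouped after values were seen, 2 rose (66.7%, against 1.18% over all genes). MSTRG.39015 had 62, 26.3 and 31 in CON and 92.7, 138 and 85 in T_1h and MSTRG.38225 had 3.37, 3.08 and 2.9 in CON and 7.42, 17 and 8.02 in T_1h, neither overlapping. Their log2 fold changes were 1.45 ± 0.61 and 1.43 ± 0.54, and both lost their calls without CON_1, CON_2, T_1h_2 or T_1h_3, at 1.70 without CON_1, 0.78 without CON_2, 1.44 without T_1h_2 and 1.05 without T_1h_3 for MSTRG.39015 and 1.5 without CON_1, 0.88 without CON_2, 1.45 without T_1h_2 and 1.12 without T_1h_3 for MSTRG.38225.

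Redox enzymes gave 1 rise and 1 fall among 41 genes, with 5 at an unadjusted p under 0.05. Over all genes 1.18% rose and 0.701% fell, so these single genes do not set the class apart. The FAD-linked sulfhydryl oxidase ALR-like gene (MSTRG.9261), which forms disulfides in the mitochondrial intermembrane space, had 0.588, 0.496 and 0.151 in CON and 3.68, 1.6 and 1.23 in T_1h, a log2 fold change of 1.10 ± 0.23 and no overlap. It fell below the minimum mean FPKM without T_1h_1, and its call was lost at 0.89 without CON_1. Thioredoxin reductase 1 (MSTRG.12349), which recycles thioredoxin with NADPH, had 1.44, 7.37 and 5.33 in CON and 0.694, 0.611 and 1.92 in T_1h. CON_1 lay between the T_1h values, and the log2 fold change of −1.34 ± 0.54 (−2.60 to −0.08) was lost as a call at −0.58 without CON_2, −1.56 without CON_3, −1.44 without T_1h_1, −1.32 without T_1h_2 and −1.26 without T_1h_3. Peroxiredoxin-6 (MSTRG.8902), a peroxide-reducing enzyme and the most abundant member, had 83.5, 117 and 54.9 in CON and 48.6, 93.7 and 34.1 in T_1h and was not called.

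Signalling molecules were among the larger rises. Glutamate receptor 2 (MSTRG.32642), a subunit of a glutamate-gated ion channel, had 0.767, 2.0 and 1.51 in CON and 2.84, 11.4 and 13.5 in T_1h. All T_1h values were above all CON values, and pairs 2 and 3 rose more than pair 1. On the log2 scale it rose by 1.90 ± 0.37 (1.04 to 2.75). Semaphorin-1A (MSTRG.26517), a membrane protein that guides axons in insects, had 3.94, 6.33 and 6.6 in CON and 25.6, 16.7 and 16.6 in T_1h. It was highest in T_1h_1, unlike most upregulated genes, and its log2 fold change was 1.64 ± 0.32 (0.89 to 2.38), or 1.36 without T_1h_1. Both genes were called in each fit without 1 library. Of 19 genes of Notch, Wnt and TGF-beta signalling 2 rose (10.5%, against 1.18% over all genes) and none fell. None rose without T_1h_1 or T_1h_3, 1 did without CON_1, CON_2 or CON_3, and 4 fell without CON_3. Transforming growth factor beta-2 (MSTRG.24488), a secreted regulator of growth and matrix synthesis, had 0.129, 2.08 and 2.15 in CON and 2.48, 3.3 and 5.2 in T_1h and a log2 fold change of 1.03 ± 0.31, lost as a call at 0.67 without CON_1, 0.93 without T_1h_1 and 0.89 without T_1h_3. Bone morphogenetic protein 2-A (MSTRG.38697), of the same superfamily, had 0.646, 3.45 and 1.34 in CON and 1.75, 4.92 and 8.9 in T_1h and a log2 fold change of 1.08 ± 0.39, lost at 1.13 without CON_2, 0.82 without CON_3, 1.14 without T_1h_1 and 0.56 without T_1h_3. Beta-catenin (MSTRG.39361), the adhesion and Wnt signalling protein, had 84.4, 53.8 and 46.5 in CON and 33.4, 21.5 and 46.7 in T_1h and was not called.

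Fewer described genes fell than rose. Riboflavin kinase (MSTRG.26171), which makes the cofactor FMN from riboflavin, fell most among described genes, with 9.99, 7.07 and 6.89 in CON and 1.37, 1.0 and 0.719 in T_1h. Every T_1h value was far below every CON value, and the log2 fold change was −2.14 ± 0.47 (−3.23 to −1.05), and −1.84 ± 0.55 without T_1h_1. RLP24 (MSTRG.27513), a factor that joins the large ribosomal subunit during its assembly, had 26.4, 4.18 and 39.5 in CON and 3.91, 2.92 and 6.24 in T_1h. CON_2 was low as well and lay within the T_1h range, and pair 2 fell least, with a log2 difference of −0.40. The log2 fold change was −1.79 ± 0.46 (−2.86 to −0.72). Globin D (MSTRG.950), a haemoglobin of the coelomic cells of sea cucumbers, had 67.3, 11.1 and 11.1 in CON and 18.3, 4.34 and 2.26 in T_1h. Each pair fell, but T_1h_1 exceeded CON_2 and CON_3, and the log2 fold change was −1.63 ± 0.43 (−2.63 to −0.63). Monocarboxylate transporter 2 (MSTRG.24123), which carries lactate and pyruvate across the cell membrane, had 5.5, 6.68 and 6.05 in CON and 1.51, 1.81 and 0.903 in T_1h. It separated the groups widely, with a log2 fold change of −1.57 ± 0.25 (−2.15 to −0.99). These 4 genes were called in each fit without 1 library.

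Hyalin (MSTRG.25464), an extracellular protein of the layer that coats sea urchin embryos, had 8.97, 23.4 and 5.76 in CON and 3.22, 9.72 and 0.746 in T_1h. Its level differed between library numbers as much as between groups, yet each pair fell, and the log2 fold change was −1.46 ± 0.23 (−2.0 to −0.91). Rac1 (MSTRG.15822, described as ras-related C3 botulinum toxin substrate 1), a GTPase that organizes actin at the cell edge, had 4.51, 4.13 and 6.83 in CON and 0.443, 0.233 and 5.94 in T_1h. Pair 3 fell little, and the log2 fold change was −1.39 ± 0.38 (−2.27 to −0.51). Both genes were called in each fit without 1 library. GABA(A) receptor-associated protein (MSTRG.12486), a ubiquitin-like protein of autophagosome membranes, had 101, 32.7 and 54.2 in CON and 16.6, 18.2 and 24.1 in T_1h with no overlap. CON_1 was the highest library, and the log2 fold change of −1.49 ± 0.42 (−2.47 to −0.52) became −0.90 without CON_1, where the call was lost. Kruppel/Krox-related gene 1 (MSTRG.41075), a zinc finger transcription factor, had 8.56, 5.16 and 4.22 in CON and 2.86, 0.747 and 1.72 in T_1h, also without overlap, and a log2 fold change of −1.35 ± 0.40, which lost its call at −1.13 without CON_1.

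The other large falls were each lost as a call without at least 1 library. Elongator protein 2 (MSTRG.3805), of the complex that modifies tRNA anticodons, had 4.6, 5.65 and 2.13 in CON and 0.782, 0.516 and 0.891 in T_1h without overlap and a log2 fold change of −1.5 ± 0.52, and its call was lost at −1.22 without CON_1 and −0.90 without T_1h_2. COQ9 (MSTRG.29307), needed to make ubiquinone for the respiratory chain, had 1.72, 9.94 and 14.8 in CON and 0.28, 0.812 and 7.98 in T_1h. Library 3 stayed high in T_1h, and the log2 fold change of −1.5 ± 0.56 lost its call at −1.41 without CON_1, −1.44 without CON_2, −1.61 without CON_3 and −0.71 without T_1h_2. Microfibril-associated glycoprotein 4-like (MSTRG.31406), which in vertebrates binds elastic fibres, had 16.8, 5.4 and 5.73 in CON and 5.98, 0.0942 and 4.61 in T_1h. The size of its fall rested on T_1h_2, the only library near 0, and the log2 fold change of −1.39 ± 0.52 lost its call at −1.12 without CON_1, −1.18 without CON_2 and −0.72 without T_1h_2.

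**Figure D4:**
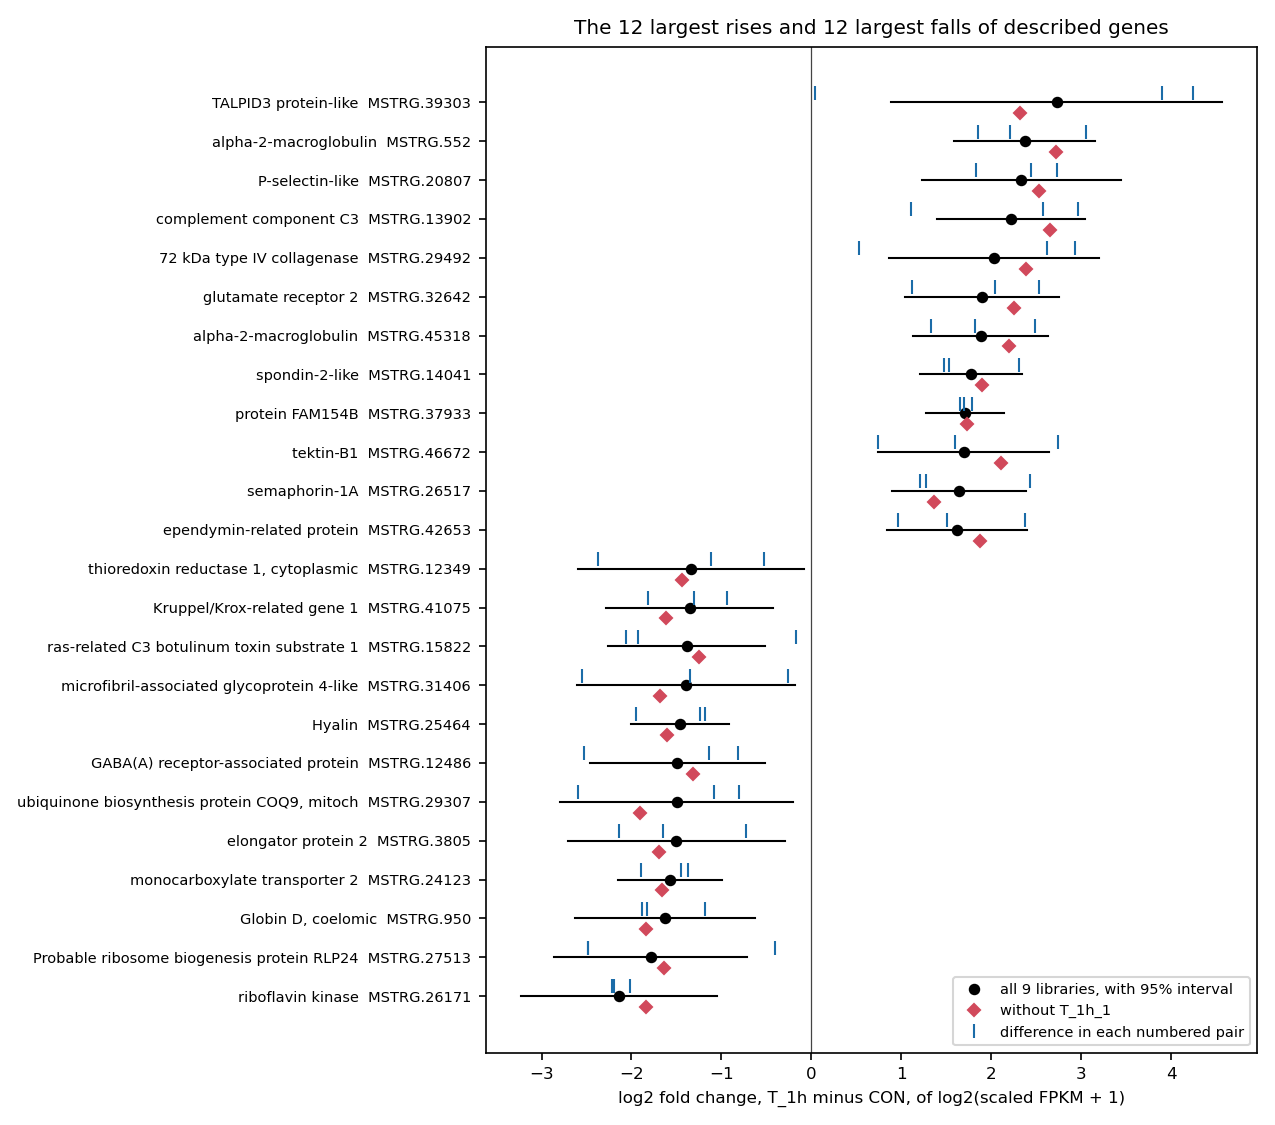
Log2 fold change, T_1h minus CON (x axis), of the 12 largest rises and 12 largest falls among described genes with 1 direction in all 3 pairs, with 95% intervals as bars, the 3 pair differences as blue ticks and the estimate without T_1h_1 as red diamonds. The estimates run from 2.73 for TALPID3-like to −2.14 for riboflavin kinase. Each red diamond lies on the same side of 0 as its main estimate, which the choice of genes with 1 direction in all 3 pairs largely fixed.

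Few genes of basic cell functions were called with all libraries, against 1.88% of all tested genes. Among 174 proteasome and ubiquitin genes, 87 ribosomal proteins, 44 translation factors, 44 caspases, Bcl-2 and IAP genes, 8 glycolytic enzymes and 3 histones, none was called by limma in either direction, and 7, 2, 0, 2, 0 and 0 of them had an unadjusted p under 0.05. A single gene of these, of the caspase class, was called as lower by the Ballgown-type test. Leaving out 1 library gave at most 2 calls in 1 direction in any of these classes, such as 2 ribosomal proteins as higher without CON_3, 2 proteasome and ubiquitin genes as higher without T_1h_2 and 2 caspase class genes as lower without T_1h_3. Bax inhibitor-1 (MSTRG.15219), a membrane protein that restrains cell death, had 122, 86.7 and 62.9 in CON and 73.5, 64.5 and 67.4 in T_1h. 40S ribosomal protein S15-like (MSTRG.44256) had 3533, 1849 and 971 in CON and 1875, 1688 and 1726 in T_1h, where CON_1 was highest and CON_3 lowest. The ubiquitin and 40S ribosomal protein fusion gene (MSTRG.27575) had 1393, 1328 and 952 in CON and 1494, 1748 and 1365 in T_1h. Of 57 respiratory chain and ATP synthase genes 1 rose, cytochrome b-c1 complex subunit 9-like (MSTRG.22546), a small subunit of complex III, with 0.739, 3.12 and 0.839 in CON and 1.2, 10.3 and 4.35 in T_1h and a log2 fold change of 1.11 ± 0.34 that lost its call at 0.78 without CON_3 and 0.83 without T_1h_2. Among 48 solute carriers and aquaporins, monocarboxylate transporter 2 was the single called gene, and 3 were downregulated without CON_3.

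KEGG pathways, read from the pathway names of the deposited table, were counted in the same way. In protein processing in the endoplasmic reticulum (92 tested genes), proteasome (41), spliceosome (107), lysosome (83), MAPK signaling (31), glutathione metabolism (30) and apoptosis (9) no gene was called by limma. ECM-receptor interaction had 2 upregulated genes of 23 (8.7%), tight junction 2 of 24 (8.33%) and phagosome 2 of 68 (2.94%) with 1 downregulated, and the pathway of the ribosome had 1 downregulated gene of 128. Over all tested genes 1.18% were upregulated and 0.701% downregulated, and counts of 1 or 2 genes do not set a pathway apart from these shares.

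**Figure D5:**
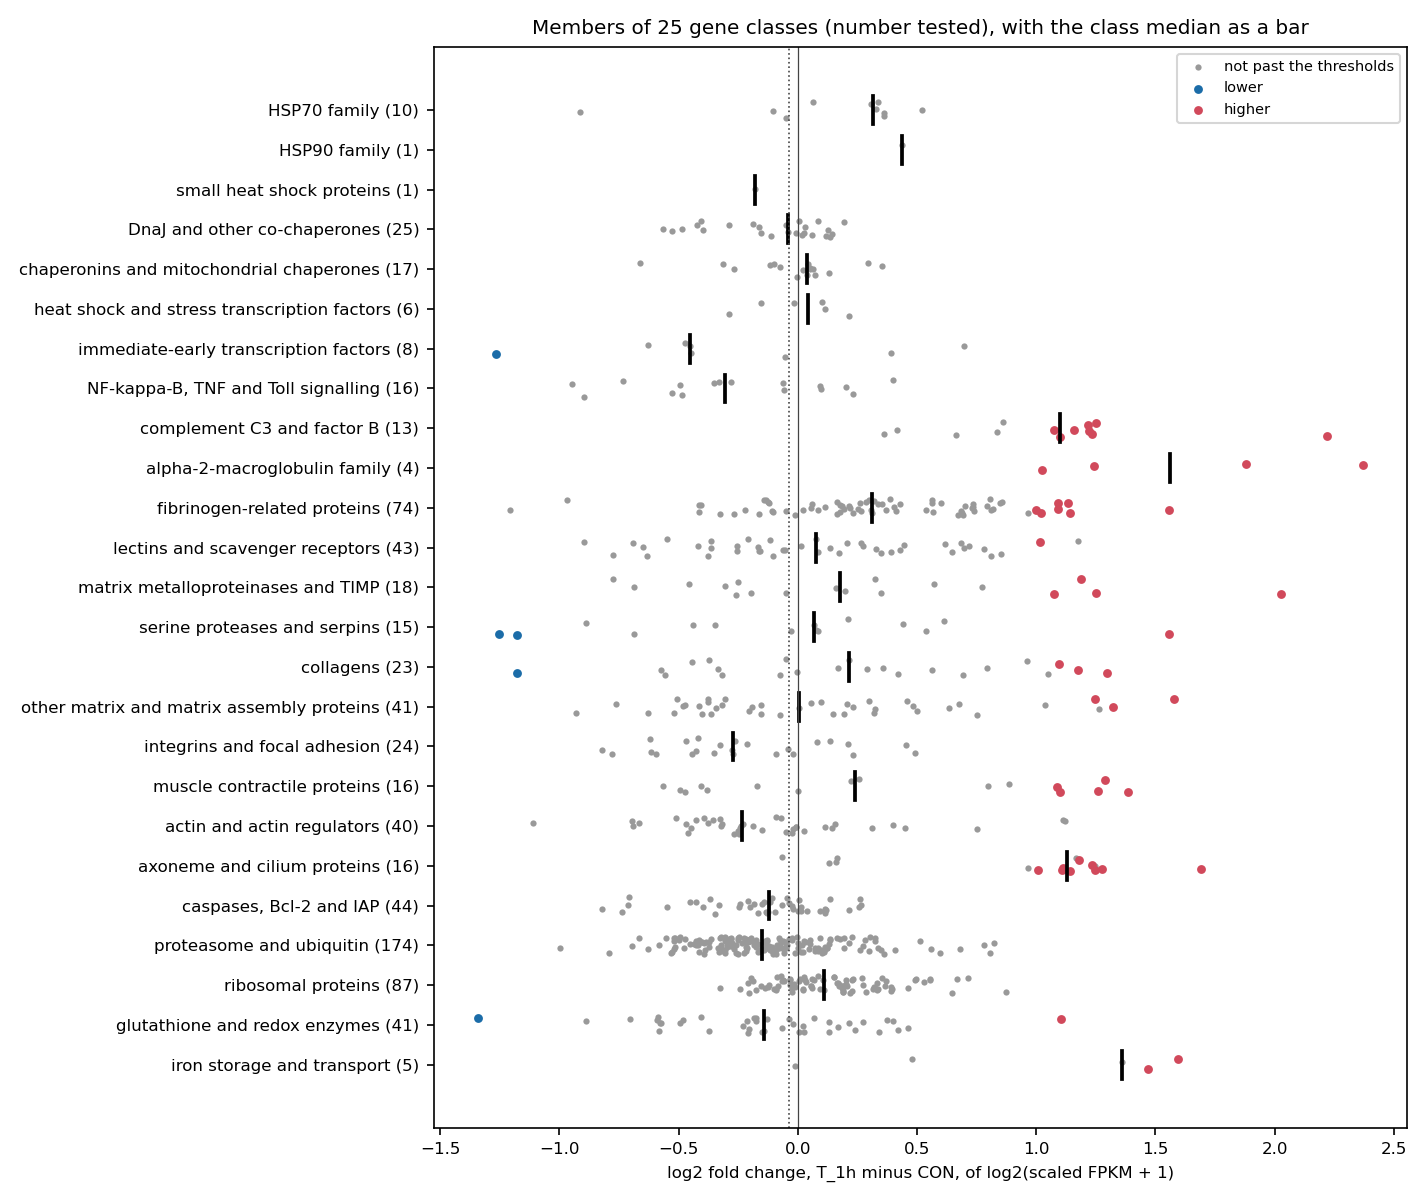
Log2 fold change, T_1h minus CON (x axis), of the members of 25 gene classes (rows, number tested in brackets), with called genes in red or blue, the class median as a black bar and the median of all genes as a dotted line. The bars of complement, alpha-2-macroglobulin, axoneme and iron classes lie at 1.10, 1.56, 1.13 and 1.36, and those of the chaperone classes between −0.18 and 0.44.

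Of the 151 genes that fell 113 had no description (74.8%), close to the 68.2% of all tested genes. The gene MSTRG.25344 showed the most consistent of these falls, with 28.3, 26.3 and 18.1 in CON and 1.51, 4.68 and 2.33 in T_1h and a log2 fold change of −2.78 ± 0.32 (−3.52 to −2.04) that was called in each fit without 1 library. Every T_1h value was below every CON value. The fall of MSTRG.25121 was larger in the fit, at −3.94 ± 1.33, but CON_1 was itself near 0 (0.0879, 43.9 and 84.3 in CON and 0, 0.137 and 0.0136 in T_1h), and its call was lost at −2.76 without CON_2, −3.60 without CON_3 and −2.40 without T_1h_3. Of undescribed rises, MSTRG.30088 had 0, 18 and 0 in CON and 80.5, 24.5 and 19.5 in T_1h, rose by 3.71 ± 1.01, and was called in each fit without 1 library, though CON_2 was nearly as high as T_1h_3. The gene MSTRG.5469 had 40.9, 209.6 and 132 in CON and 7863, 538 and 445 in T_1h. T_1h_1 was more than 10 times any other of these libraries, the log2 fold change was 3.55 ± 1.25, and 1.84 without T_1h_1, where the call was lost, as it was without CON_1 and CON_3 (2.24 without CON_1, 3.65 without CON_3 and 1.84 without T_1h_1).

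To see which genes of the first hour moved further, T_3h was compared with T_1h in the same fit. The T_1h libraries enter both comparisons, so a chance high value at 1 h lowers the second difference, and the values are set side by side without a test of their relation. In T_3h vs. T_1h, 161 genes were upregulated (0.747%) and 293 downregulated (1.36%), none with a Benjamini-Hochberg adjusted p under 0.05 in limma and 1719 (7.98%) with an unadjusted p under 0.05. The total of 454 became 1265 without T_3h_3 and 721 without T_1h_3. Semaphorin-1A (MSTRG.26517) had 6.7, 3.97 and 8.83 at 3 h and fell, with a log2 difference of −1.49 ± 0.32, to values near those of CON. FAM154B (MSTRG.37933) had 1.18, 7.79 and 2.71 at 3 h, each below the T_1h library of its number, and a log2 difference of −0.86 ± 0.19, whose size missed the threshold. Riboflavin kinase (MSTRG.26171) had 11.7, 0.769 and 4.33 and a log2 difference of 1.29 ± 0.47, so that library 1 was again at its CON level and library 2 was not.

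Other genes continued in the direction of the first hour. Glutamate receptor 2 (MSTRG.32642) had 11.2, 34 and 12.7 at 3 h, with a log2 difference from T_1h of 1.03 ± 0.37. Deleted in malignant brain tumors 1 (MSTRG.35239) had 60.3, 51.5 and 14.5, with 1.20 ± 0.30. The Kazal-type inhibitors fell again, MSTRG.20916 to 1.47, 2.5 and 0.533 (−1.03 ± 0.32) and MSTRG.18044 to 3.03, 5.0 and 2.01 (−1.63 ± 0.35). The myosin light chains rose again, MSTRG.17224 to 148, 268 and 151 (1.31 ± 0.40) and MSTRG.37164 to 73.9, 130.5 and 67.2 (1.55 ± 0.41). Of the complement genes and the alpha-2-macroglobulin genes none was called in T_3h vs. T_1h by limma, and their medians for this difference were 0.34 and 0.43. C3 (MSTRG.13902) had 34.8, 67.4 and 143 and alpha-2-macroglobulin (MSTRG.552) had 15.8, 32.3 and 26 at 3 h.

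Heat shock genes differed in direction at 3 h. HSP90 (MSTRG.12166) had 97.1, 45.8 and 172, with a log2 difference from T_1h of −0.87 ± 0.33, which missed the size threshold. Alpha-crystallin B chain-like (MSTRG.30013) had 26.4, 60.8 and 30.2, above the T_1h library of its number in each pair, and was called at 1.24 ± 0.46. Heat shock cognate 70 (MSTRG.20083) had 97.2, 48.8 and 194, with a log2 difference of −0.32 ± 0.42. Natterin-3-like (MSTRG.22489), similar to a fish venom protein and named after its values were seen, fell at both steps, with 24.4, 249.8 and 122 in CON and 14.3, 99.9 and 61.7 in T_1h and 0.782, 9.13 and 13.3 in T_3h. Its log2 fold change was −1.01 ± 0.32 in T_1h vs. CON, a call lost at −0.73 without CON_2 and −0.84 without T_1h_3, and −2.85 ± 0.32 in T_3h vs. T_1h. For T_1h vs. CON the Ballgown-type test gave 0.39, a change of sign.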

How the data were processed

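Total RNA of body wall was sequenced in 9 libraries, and each library's group and number were taken from its title. The authors filtered the reads for adaptors, primers and a quality under 20, aligned them with HISAT to the *A. japonicus* genome, assembled and merged transcripts with StringTie, and deposited FPKM for 53665 genes with descriptions and KEGG pathways. The submitters' processing notes list HISAT2 2.0 and StringTie 1.3.0. FPKM is already divided by exon length and mapped reads, so no counts were used, no counting interval can be given, and precision rests on 3 libraries per group. Gene identifiers are those of the table, and none matched the RefSeq table used here, so no coordinates are given.

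FPKM was scaled by median ratios over the 7156 genes at 1 or more in every library, taken to log2(FPKM + 1), and modelled in R 4.3.3 with limma 3.58.1 (trend option) over the 9 libraries, with group and library number as terms, for the genes whose mean FPKM over CON and T_1h reached 1. Methods and labels do not say what a number shares. Deviations from the group means correlated across genes between libraries of 1 number (mean 0.710, lowest 0.638, 9 pairs), so the libraries were paired. The mean of −0.355 for 18 pairs of different numbers largely follows from that value, because deviations within a group cancel out. It adds no separate evidence for the pairing. P-values are two-sided, and adjusted p-values are Benjamini-Hochberg over all tested genes. An exact permutation test of 3 libraries against 3 cannot give a p under 0.1. The procedure was tested on simulated data. Figures were drawn in matplotlib 3.10.9, and Python 3.11.15, pandas 2.3.3 and numpy 2.4.6 handled the tables.

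Gene classes, matched on descriptions, and the genes compared were chosen with earlier results of these data known. Named genes are the 12 largest rises and 12 largest falls among described, called genes with 1 direction in all pairs, up to 3 called members and the most abundant member of each of 39 classes, and 2 rises and 2 falls without a description. Others are said to be named after their values were seen. Alternatives were no pairing, FPKM as deposited, upper-quartile scaling (0.75 quantile), a pseudocount of 0.1, no minimum or a minimum mean FPKM of 5, the 6 CON and T_1h libraries alone, no trend, leaving out each library or number, the study's choices together (no T_1h_1, scaling, pairing or minimum), and a Ballgown-type test. The last was an unmoderated test of nested models on the CON, T_1h_2 and T_1h_3 libraries. It used FPKM as deposited, no pairing, and a library sum of low log2(FPKM + 1) values as a further term.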

Additional observations from a re-analysis of the deposited data

How the results depend on the processing

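With 3 libraries per group and no read counts, only large or consistent changes could pass. Of 125 called and described or named genes, 33 were called in each fit without 1 CON or T_1h library. Without the replicate block that pairs the libraries, 137 genes were upregulated and 83 downregulated in T_1h vs. CON, 211 genes were called in T_3h vs. T_1h, and 59 of the 125 calls were lost. With FPKM as deposited, 357 genes were downregulated, 1 gene had an adjusted p under 0.05, 736 were called in T_3h vs. T_1h, and 31 of the 125 calls were lost. A pseudocount of 0.1 gave 470 upregulated, 327 downregulated and 1313 in T_3h vs. T_1h. A minimum mean FPKM of 5 gave 139, 72 and 281, with 6272 genes tested. Upper-quartile scaling, no minimum mean FPKM, the CON and T_1h libraries alone and no trend kept the counts in T_1h vs. CON within 1.5 times and lost 2, 6, 4 and 1 of the 125 calls. The choices of the study together gave 241 downregulated genes and lost 59 of the 125 calls, and the Ballgown-type test gave 286, kept 39 calls, lost 83 and turned the direction of 2. Leaving out 1 library gave 234 to 351 upregulated, 132 to 568 downregulated, 0 to 3 with an adjusted p under 0.05 and 355 to 1265 in T_3h vs. T_1h. Leaving out 1 library number gave 239 to 395 upregulated, 142 to 499 downregulated and up to 1083 in T_3h vs. T_1h. The direction changed for 4 genes. The log2 fold change of MSTRG.30013 was 0.22 with the choices of the study and 0.18 in the Ballgown-type test, and ran from −0.79 to 0.57 on leaving out a library or a number (0.38 without CON_1 or T_1h_1). That of MSTRG.11189 was 0.35 and 0.44, and ran from −0.82 to 0.60 (0.14 without CON_1). In the Ballgown-type test MSTRG.2214 had −0.093 and MSTRG.22489 had 0.39. The causes of these differences were not tested.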

Other observations

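Some described genes outside the classes changed as well, and all of them were chosen after their values were seen. Of 16 tested genes described as zinc transporters 2 rose and 1 fell, where 1.18% rose and 0.701% fell over all genes. ZIP12, an importer of zinc at the cell membrane, rose as MSTRG.26915, with scaled FPKM of 0.483, 0.417 and 0.615 in CON and 1.47, 2.76 and 3.46 in T_1h and no overlap, and a log2 fold change of 1.20 ± 0.36 (0.37 to 2.03). A second ZIP12 gene (MSTRG.1131) had 0.217, 1.43 and 2.44 in CON and 0.589, 4.96 and 9.16 in T_1h and 1.08 ± 0.36. ZIP10 (MSTRG.14916), another importer, fell from 7.27, 12.9 and 8.34 in CON to 4.13, 3.08 and 4.62 in T_1h, with a log2 fold change of −1.06 ± 0.30 (−1.77 to −0.36). The calls were lost at 0.93 without CON_2 and 0.87 without T_1h_3 for MSTRG.26915, 0.79 without CON_2, 1.05 without CON_3 and 0.73 without T_1h_3 for MSTRG.1131 and −0.79 without CON_2 and −0.81 without T_1h_2 for MSTRG.14916. Genes described as heme-binding protein 2, a small protein that binds heme in mammals, rose as MSTRG.34627 (33.3, 37.4 and 15.7 in CON and 61, 80.2 and 56.5 in T_1h, log2 fold change 1.24 ± 0.29 (0.56 to 1.92)) and as MSTRG.34630 (0.898, 2.47 and 7.15 in CON and 2.34, 5.99 and 18.8 in T_1h, 1.04 ± 0.21 (0.56 to 1.51)). Only the first separated the groups, and their calls were lost at 0.92 without T_1h_3 and at 0.93 without CON_3, 0.99 without T_1h_2 and 0.94 without T_1h_3. Selenoprotein P-like (MSTRG.20969), a selenium carrier, had 3.67, 8.78 and 3.45 in CON and 10.8, 24.1 and 13.3 in T_1h and rose by 1.46 ± 0.31 (0.74 to 2.18).

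Cartilage oligomeric matrix protein (MSTRG.26234), of the thrombospondin family, had 1.98, 3.84 and 3.26 in CON and 4.8, 14.3 and 16.7 in T_1h, and growth/differentiation factor 8 (MSTRG.27245), known as myostatin in mammals for restraining muscle growth, had 5.01, 4.35 and 11.8 in CON and 15.5, 15.1 and 32.7 in T_1h. Both separated the groups, with log2 fold changes of 1.56 ± 0.26 (0.96 to 2.15) and 1.48 ± 0.31 (0.76 to 2.21), and both were called in each fit without 1 CON or T_1h library, as was selenoprotein P-like in MSTRG.20969. Arginine kinase (MSTRG.21199), which buffers ATP in invertebrate muscle, had 1.21, 0.629 and 2.89 in CON and 0.887, 7.87 and 14.8 in T_1h. Pair 1 went slightly the other way, and the log2 fold change was 1.41 ± 0.53 with all libraries and 2.10 without T_1h_1, with calls lost at 0.87 without CON_2, 1.39 without CON_3, 1.18 without T_1h_2 and 0.96 without T_1h_3.

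Iroquois homeobox A (MSTRG.1082), a transcription factor, had 16, 21.5 and 17.4 in CON and 5.86, 8.64 and 9.22 in T_1h and a paired box protein (MSTRG.42899) had 10.8, 16.1 and 14.2 in CON and 4.08, 4.91 and 9.2 in T_1h, neither overlapping. Their log2 fold changes were −1.13 ± 0.32 (−1.87 to −0.39) and −1.11 ± 0.37 (−1.97 to −0.24), with calls lost at −0.90 without CON_2 for the first and −0.97 without CON_1, −0.81 without CON_2, −1.08 without T_1h_2 and −1.06 without T_1h_3 for the second. Retinoic acid receptor beta-like (MSTRG.24060), a nuclear receptor, had 41.5, 52.3 and 26.8 in CON and 31.8, 9.89 and 10.4 in T_1h and −1.32 ± 0.44, lost at −1.18 without CON_2, −1.20 without CON_3 and −0.72 without T_1h_2. Both genes described as tight junction protein ZO-1, the scaffold under epithelial junctions, fell, whereas the tight junction pathway of KEGG had 2 upregulated genes of 24 and none downregulated. MSTRG.5059 had 13, 25.4 and 18 in CON and 5.3, 7.53 and 12.3 in T_1h and MSTRG.8422 had 15.7, 13.5 and 24.1 in CON and 6.74, 4.57 and 15.7 in T_1h, with log2 fold changes of −1.10 ± 0.34 and −1.03 ± 0.35, lost at −0.99 without CON_1, −0.80 without CON_2 and −1.0 without T_1h_2 and at −0.86 without CON_1, −0.81 without CON_2, −0.97 without T_1h_2 and −0.96 without T_1h_3. A cytochrome P450 2C21-like gene (MSTRG.14212), of an oxidase family that acts on foreign compounds, had 11.8, 4.8 and 6.94 in CON and 4.19, 2.68 and 2.01 in T_1h with no overlap and a log2 fold change of −1.12 ± 0.21 (−1.62 to −0.62), lost at −1.0 without CON_3. A contactin gene (MSTRG.45888), a cell adhesion protein of neurons in vertebrates, had 4.33, 2.62 and 3.6 in CON and 0.442, 0.423 and 1.76 in T_1h and −1.33 ± 0.25 (−1.91 to −0.74), and was called in each fit without 1 CON or T_1h library.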
